A study of Mus musculus with 2 samples.

Results

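Periosteal cells of mouse long bones contained a population of resting B cell precursors, chosen here by the counts of 6 genes. A member had at least 1 unique molecular identifier (UMI) of Cd79a, which encodes a signaling chain of the B cell receptor, and at least 1 of Rag1, which encodes a subunit of the recombinase that cuts immunoglobulin genes. It also had no UMI of Dntt, the pro-B enzyme terminal transferase, none of the proliferation genes Mki67 and Top2a, and none of Ms4a1, which encodes CD20 of later B cells. Of 9169 cells kept in the 2 libraries, 1001 met the rule. Library 1 gave 709 of 6276 cells (11.3%, exact binomial 95% interval 10.5 to 12.1) and library 2 gave 292 of 2893 (10.1%, 9.02 to 11.2). They were 22.5% and 20.7% of all cells with a Cd79a UMI.

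The tissue was periosteum peeled from the femurs and tibias of WT C57BL6 mice at 4 weeks of age, digested with collagenase, and sorted for live cells negative for CD45, CD31, and Ter-119, which were measured with 10x Genomics 3′ v3.1 scRNA-Seq. Both libraries are replicates of this 1 condition with no treatment. The labels do not name the number of mice or say that the libraries came from separate animals, so each p value measures only the spread between these 2 libraries. Among members, 446 and 124 cells had Xist RNA and no Y-linked RNA, and 127 and 91 had the reverse. Each library thus held RNA of both sexes. Library 1 held 9932 barcodes with 100808649 UMIs and library 2 held 3659 with 33306452. Members were compared with 3 other gates of the same libraries: Ms4a1 B cells (a Cd79a UMI and at least 2 Ms4a1 UMIs, 405 and 239 cells), Dntt pro-B cells (at least 1 UMI each of Cd79a, Dntt, and the surrogate light chain genes Vpreb1 and Igll1, 331 and 330 cells), and cycling pre-B cells (a Cd79a UMI, at least 2 UMIs of Mki67 and Top2a together, none of Dntt or Ms4a1, 940 and 226 cells).

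B cells are assembled in steps, each of which is tied to a gene rearrangement. Pro-B cells join the heavy chain gene with help from terminal transferase, and large pre-B cells pair the new heavy chain with the surrogate light chain and divide under IL-7. Small pre-B cells then stop dividing, express the RAG recombinase again, and rearrange the kappa light chain gene and, if this fails, the lambda genes, after which a complete receptor is displayed and RAG is turned off. In mice these steps are best known from bone marrow.

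RAG1 and RAG2 work as 1 complex, and their genes lie side by side on chromosome 2 (GRCm38, Rag2 at 101624718 to 101632529 on the plus strand and Rag1 at 101638282 to 101649501 on the minus strand). The start regions of both genes are shown because the first was used to choose the cells and the second was not. Each run covers 250 bases before and 50 bases after the RefSeq start (GRCm38.p6), 5′ to 3′ on the strand of the gene, and capitals mark the E-box letters CAGGTG and CAGCTG, which E proteins such as the product of Tcf3 can bind, searched on both strands with no overlap between the 2 motifs.
Rag1, chr2:101649483-101649782, minus strand: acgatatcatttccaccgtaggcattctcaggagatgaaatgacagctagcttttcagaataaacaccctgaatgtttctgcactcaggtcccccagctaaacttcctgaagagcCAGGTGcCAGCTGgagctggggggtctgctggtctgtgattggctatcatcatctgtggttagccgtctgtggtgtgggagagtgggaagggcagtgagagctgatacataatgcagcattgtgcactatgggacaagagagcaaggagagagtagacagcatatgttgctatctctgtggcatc
Rag2, chr2:101624462-101624761, plus strand: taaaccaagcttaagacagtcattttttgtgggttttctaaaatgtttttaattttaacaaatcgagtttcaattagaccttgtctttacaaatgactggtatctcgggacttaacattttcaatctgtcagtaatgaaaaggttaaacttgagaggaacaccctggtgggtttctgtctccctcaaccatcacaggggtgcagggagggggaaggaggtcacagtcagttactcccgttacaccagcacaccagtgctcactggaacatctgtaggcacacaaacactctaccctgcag
The Rag1 window held 1 CAGGTG and 1 CAGCTG, and the Rag2 window held 0 of either. Of 32817 RefSeq start windows of the same length, 20.2% held CAGGTG, 16.3% held CAGCTG, and 33% held at least 1 of the 2.

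The B lineage part of the label was first checked against genes that the rule did not use. UMIs were summed over the cells of a group in each library and divided by the total of that sum (CPM), a scale on which 1 gene can be compared between groups. Leaving out mitochondrial genes and ribosomal protein genes with Rpl or Rps symbols, Igkc held rank 9, Ighm rank 10, and Ebf1, the transcription factor that sets up the B lineage, rank 12 by mean level among the genes of the members. Ebf1 stood at 4330 and 4357 CPM. Igkc and Ighm were also high in Ms4a1 B cells, at 4360 and 8092 CPM and at 3216 and 3809 CPM. Their ranks thus bear on the B lineage and do not tell the pre-B stage from later ones. Malat1, a nuclear RNA, led with 23498 and 13267 CPM, and the erythroid gene Hbb-bs, described below, held rank 2. The genes used for the choice are given as description only: Rag1 stood at 701 and 624 CPM, and Vpreb1 at 67.8 and 181 CPM. At least 2 Rag1 UMIs were counted in 433 and 174 members and a single one in 276 and 118. Just outside the rule, 441 and 215 cells met every other criterion with no Rag1 UMI. In these cells Rag2 was at 21.1 and 15.96 CPM, whereas members with a single Rag1 UMI had 42.5 and 41.1 CPM of Rag2 and those with more had 77.5 and 82.1 CPM.

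Members held few UMIs. Their median was 3181 and 3352 UMIs per cell, close to the 3522 and 3247 of Ms4a1 B cells and below the 7136 and 5612.5 of Dntt pro-B cells and the 13110 and 9692 of cycling pre-B cells. Median mitochondrial shares in members were 5.44% in library 1 and 2.20% in library 2, so the libraries differ in this measure. The shares were 5.69% and 2.33% in Ms4a1 B cells, 3.63% and 1.42% in pro-B cells, and 3.71% and 1.55% in cycling pre-B cells. Ribosomal protein RNA made up 21.8% and 22.3% of the UMIs of members and 22.7% and 23.9% of those of Ms4a1 B cells. It made up 27.7% and 26.5% in pro-B cells and 28% and 26.7% in cycling pre-B cells. Members deeper than 3 times their median, 9 and 1 cells, held 4.69% and 2.80% of the UMIs of their sums. Cells deeper than 3 times the median of their own gate held 38.5% and 22.1% of the sums of Ms4a1 B cells, 43.2% and 27.7% of those of pro-B cells, and 51.4% and 37.1% of those of cycling pre-B cells, so deep barcodes weigh more in the comparators. The libraries shared 8 barcodes, 7 of them kept. The sort was meant to remove CD45+ cells, and Ptprc, which encodes CD45, had a UMI in 49.2% and 37.3% of members, against 41.6% and 14.7% of cells without a Cd79a UMI at median depths of 11098 and 9412 UMIs. With every cell thinned to 2000 UMIs these shares were 36.5% and 24.0% of members against 23.4% and 7.43%. Surface protein was not measured.

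RNA of other cell types was present in the sums. Of the 9 tested erythroid markers the most abundant in members was Hbb-bs, at 10533 and 10649 CPM. Without the 24 and 6 members in which markers of another type exceeded 1% of UMIs, Hbb-bs fell to 964 and 317 CPM. The neutrophil list summed to 10821 and 81.2 CPM with these barcodes, led by S100a9, and to 724 and 80.2 CPM without them. The stroma list, led by Col1a1, summed to 122 and 2406 CPM with all members and to 128 and 118 CPM without the mixed barcodes. Markers of T and NK cells summed to 3.75 and 1.87 CPM, with Cd3e and Cd3g at 0. The monocyte list summed to 398 and 83.0 CPM with Csf1r, Adgre1, and Mrc1 at 0, the plasma cell list, led by Irf4, to 373 and 325 CPM with Tnfrsf17 at 0, and the plasmacytoid dendritic list to 273 and 190 CPM with Siglech at 0. The endothelial list, at 82.4 and 55.0 CPM, was mostly Pecam1, which encodes CD31, another marker the sort was meant to remove. Mixed barcodes were also present in the other gates (41 and 5 Ms4a1 B cells, 20 and 12 Dntt pro-B cells, 182 and 15 cycling pre-B cells). No erythroid, neutrophil, monocyte, or stroma marker was called in any of the 3 comparisons by the edgeR quasi-likelihood test, and with the library block a few were. In the other marker lists the unblocked test called Pecam1, Sdc1, Irf4, and Cox6a2 higher and Egfl7 and Bst2 lower against pro-B cells. It called Pecam1 and Irf4 higher and Egfl7 and Nkg7 lower against cycling pre-B cells, and none against Ms4a1 B cells. With the block, Pecam1 and Sdc1 were higher and Bst2 lower against Ms4a1 B cells. The block also added Tcf4, lower against pro-B cells, and against cycling pre-B cells Cox6a2 and Tcf4, higher, and Bst2, lower. The block calls in the first 4 lists against Ms4a1 B cells were Elane, Ctss, Sparc, and Dcn, all lower in members. Against pro-B cells Blvrb was higher and Car2 lower, and against cycling pre-B cells Ctss was higher and Car2, Slc4a1, Elane, Mpo, C1qa, and Sparc were among those lower.

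**Figure D1:**
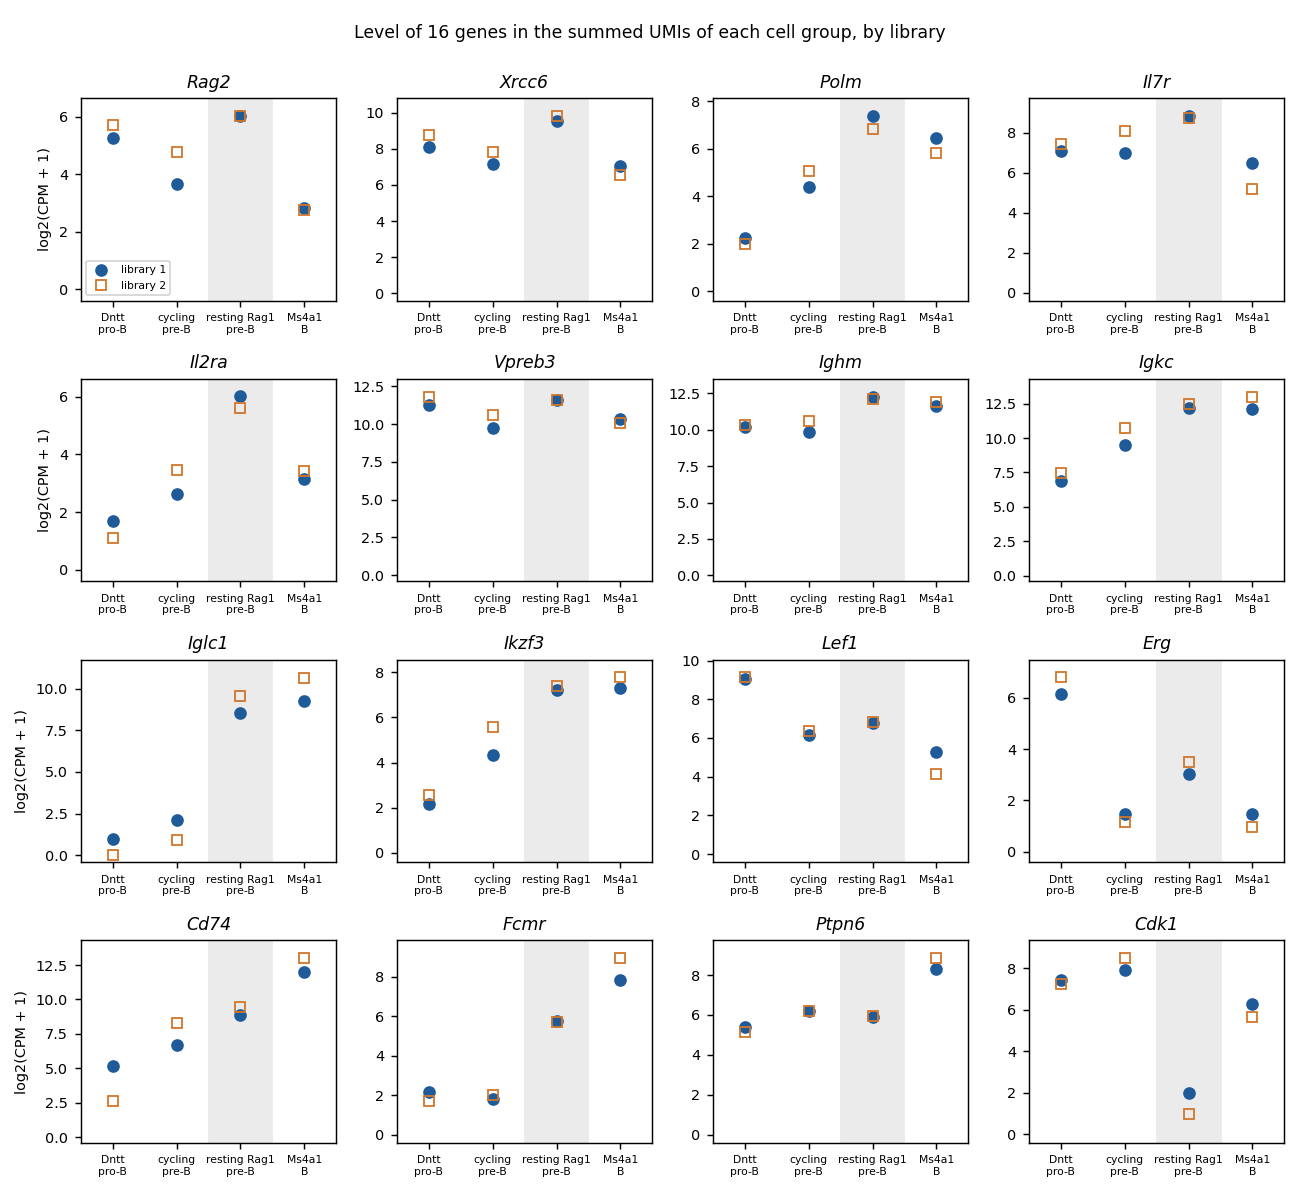
Levels of selected genes as log2(CPM + 1), 1 panel per gene; each point is the UMI sum of 1 group in 1 library, for resting Rag1 pre-B, Ms4a1 B, Dntt pro-B, and cycling pre-B cells. Rag2 in members lies above the Ms4a1 B cells in both libraries, and Erg and Lef1 lie below the Dntt pro-B cells.

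The first comparison asked how members differ from later B cells. Relative to Ms4a1 B cells, members had more RNA of the recombination genes Rag2 and Xrcc6, of the IL-7 receptor gene Il7r, and of the transcription factors Myb and Tcf3, and less of the mature B cell genes Cxcr5, Fcer2a, Btla, and Fcmr and of the phosphatase gene Ptpn6. Of 10436 genes tested, 37 were called higher and 73 lower at an adjusted p under 0.05 (edgeR quasi-likelihood test, Benjamini-Hochberg), that is 0.355% and 0.7%. With the library as a block, which pairs the sums of 1 library, 359 were higher and 550 lower, including all 37 and all 73. Other settings shared fewer of the reported calls: 35 higher and 38 lower in cells of 2000 to 8000 UMIs, 31 and 39 with cells thinned to 2000 UMIs, and 22 and 34 when Ms4a1 B cells with a Mki67 or Top2a UMI were left out, where 33 and 61 were called. At an unadjusted p under 0.05 the edgeR test gave 683 and 948, and DESeq2 called 143 and 304. Without the mixed barcodes 74 were higher and 151 lower. Among barcodes with at most 5% mitochondrial UMIs, which keeps 249 of the 709 members of library 1, 1 was higher and 3 were lower. No gene of the lists below was called under that limit, so Rag2, Xrcc6, Il7r, Myb, Tcf3, Cxcr5, Fcer2a, Btla, Fcmr, and Ptpn6 lost their calls there.

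Of the 12 tested V(D)J recombination genes, 2 rose and none fell. Rag2 stood at 64.1 and 64.4 CPM in members and at 6.14 and 5.79 CPM in Ms4a1 B cells (log2 fold change 3.42, SE 0.47, edgeR adjusted p = 0.026). The groups did not overlap, and the Rag1 criterion of the members bears on this gene, since Rag2 rose with Rag1 UMIs as given above. Rag2 UMIs were seen in 18.8% and 20.9% of members, in 3.21% and 2.51% of Ms4a1 B cells, and in 0.256% and 0.338% of cells without Cd79a. Xrcc6, which encodes the Ku70 end-binding protein of the joining step, was at 731 and 896 CPM in members and at 131 and 92.7 CPM in Ms4a1 B cells (2.85, SE 0.34, edgeR adjusted p = 0.024). Xrcc6 was again far above the other group in both libraries. For Lig4, the ligase of that step, members had 66.6 and 44.8 CPM and Ms4a1 B cells 17.6 and 11.6 CPM (1.94, SE 0.36, edgeR adjusted p = 0.051, 0.0089 with the library block).

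Of 18 tested genes for IL-7 reception and stromal contact, Il7r alone was called. It stood at 454 and 422 CPM in members and at 86.9 and 35.7 CPM in Ms4a1 B cells (log2 fold change 2.83, SE 0.49, edgeR adjusted p = 0.047). A UMI of Il7r was found in 65.3% and 61.6% of members and 21.2% and 10.0% of Ms4a1 B cells. After thinning to 2000 UMIs the shares were 50.7% and 49.1% against 12.9% and 7.20%, with 0.872% and 0.675% in cells without Cd79a. With the library block Socs2, Cd93, and Bst1 were called higher as well. Bst1, a surface enzyme of stromal and early B cells, was at 57.4 and 38.2 CPM in members and at 10.97 and 4.83 CPM in Ms4a1 B cells (edgeR adjusted p = 0.051, 0.012 with the block). For Il2ra, whose product CD25 marks small pre-B cells and which was named after its values were seen, members had 63.7 and 48.5 CPM and Ms4a1 B cells 7.90 and 9.66 CPM (2.71, SE 0.49, edgeR adjusted p = 0.051).

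Among 25 B lineage transcription factors, 2 rose and none fell, or 8 and 2 with the block. Myb, needed by early B cells, was at 426 and 378 CPM in members and at 119 and 78.2 CPM in Ms4a1 B cells (2.03, SE 0.27, edgeR adjusted p = 0.026). Tcf3, which encodes the E proteins E12 and E47, was at 522 and 527 CPM against 184 and 163 CPM (1.59, SE 0.26, edgeR adjusted p = 0.042). Both libraries put the members above. Sox4, another factor of early B cells, was at 950 and 567 CPM in members and 250 and 95.6 CPM in Ms4a1 B cells (2.16, SE 0.49, edgeR adjusted p = 0.082, 0.003 with the block).

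Of 29 tested genes of immature and mature B cells, 4 fell and none rose, and the list median was -1.88 on the log2 scale (-1.02 in library 1 and -2.48 in library 2), where the median of all genes was 0.0029. With the block, 15 of the 29 fell, and 9 did when Ms4a1 B cells with a Mki67 or Top2a UMI were left out. With at most 5% mitochondrial UMIs none was called. Fcmr, a receptor for IgM, was at 53.7 and 50.4 CPM in members and at 229 and 488 CPM in Ms4a1 B cells (log2 fold change -2.79, SE 0.42, edgeR adjusted p = 0.036). Btla, an inhibitory receptor, was at 2.08 and 1.87 CPM against 30.3 and 41.5 CPM (-4.13, SE 0.55, edgeR adjusted p = 0.026). The follicle homing receptor gene Cxcr5 and the CD23 gene Fcer2a had no UMI in members of either library. A count of 3 UMIs, the floor used for such sums, is 1.25 CPM in library 1 and 2.8 CPM in library 2, so Cxcr5 was at least 20.7-fold lower in library 1 and 6.9-fold lower in library 2, and Fcer2a at least 12.7-fold and 6.9-fold lower. These bounds cover counting error only.

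Cd74, the invariant chain of MHC class II, was at 471 and 689 CPM in members and at 3984 and 8108 CPM in Ms4a1 B cells (log2 fold change -3.41, SE 0.88, edgeR adjusted p = 0.12, 0.033 with the block). Among 16 tested B cell receptor signaling genes 1 fell and none rose (with the block, Blnk rose and Cd22 and Ptpn6 fell). Ptpn6, the phosphatase SHP-1, was at 58.7 and 60.6 CPM in members and at 315 and 460 CPM in Ms4a1 B cells (-2.71, SE 0.29, edgeR adjusted p = 0.021). Of the 9 tested immunoglobulin and pre-B receptor genes none was called (with the block, Vpreb3 was higher). Igkc was at 4604 and 5763 CPM in members and at 4360 and 8092 CPM in Ms4a1 B cells (-0.29, SE 0.46, edgeR adjusted p = 0.82), and the groups overlapped.

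By the rule of largest change, the higher genes were led by Adamts7, a secreted metalloprotease, at 107 and 174 CPM in members and 10.97 and 11.6 CPM in Ms4a1 B cells (3.61, SE 0.61, edgeR adjusted p = 0.043). Gfra1, a GDNF receptor subunit, was at 103 and 99.8 CPM against 10.1 and 13.5 CPM (3.12, SE 0.40, edgeR adjusted p = 0.026). Slc12a3, a salt transporter, and the unnamed transcripts Gm34095 and Gm37065 were the others beside Rag2, Xrcc6, and Il7r. The lower genes were led by Il4i1, an amino acid oxidase induced in activated B cells, at 0.416 and 0.933 CPM in members and at 62.8 and 104.3 CPM in Ms4a1 B cells (-7.07, SE 0.66, edgeR adjusted p = 0.0019). Il4i1 was the gene of this rule with an adjusted p under 0.05 also with at most 5% mitochondrial UMIs (0.042). Bank1, an adaptor of the B cell receptor, was at 8.74 and 9.33 CPM against 107 and 133 CPM (-3.73, SE 0.36, edgeR adjusted p = 0.019), and Egr3, Cfp, and Cyth4 were also lower. The remaining lower genes, Cdk1, Nusap1, and Pclaf, belong to the cell cycle, which the choice of members bears on: members had to lack Mki67 and Top2a, and Ms4a1 B cells did not. When Ms4a1 B cells with a UMI of either gene were left out, an alternative chosen after seeing the data, Pclaf no longer pointed the same way (log2 fold change 0.85).

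In the cell cycle lists, 1 of 24 S phase and 6 of 22 G2/M genes were lower than in Ms4a1 B cells, or 13 and 14 with the library block, and none of either without the block once Ms4a1 B cells with a Mki67 or Top2a UMI were left out. No call was made by the edgeR test in the lists of G1 cyclins and brakes, survival genes, RAG break genes, glycolytic enzymes, and ribosome biogenesis genes. With the library block, 2 of 16 G1 genes rose and 2 fell, 1 of 12 survival genes rose and 3 fell, and 5 of 16 glycolytic and 4 of 17 ribosome biogenesis genes fell. The 5 tested of 7 listed RAG break genes gave no call with the block. Bcl2, an antiapoptotic gene, was at 0.832 and 1.87 CPM in members and at 16.7 and 14.5 CPM in Ms4a1 B cells (edgeR adjusted p = 0.056, 0.011 with the block). Bcl2l1 was at 66.6 and 63.4 CPM against 22.4 and 10.6 CPM (edgeR adjusted p = 0.11, 0.018 with the block), so these related survival genes pointed in opposite directions in both libraries.

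The second comparison asked what separates members from the pro-B stage, at which the heavy chain is usually rearranged first. Light chain RNA, the kinase genes Blk, Lyn, and Syk, and the transcription factors Ikzf3, Spib, and Irf4 were higher in members. So were some mature B cell genes such as Cd74 and Ly6d. Cell cycle genes, Erg, and Lef1 were lower, as was the surrogate light chain gene Vpreb2, which the pro-B gate on Vpreb1 and Igll1 bears on. Of 10436 genes, 584 (5.6%) were higher and 846 (8.11%) lower. Library blocking gave 1608 and 1716, including all of these. The Dntt pro-B gate also holds dividing cells: without pro-B cells that had a Mki67 or Top2a UMI, which leaves 158 and 229 cells, 207 were higher and 225 lower. With at most 5% mitochondrial UMIs, 342 were higher and 599 lower.

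Of 9 tested immunoglobulin and pre-B receptor genes, 6 rose and 1 fell against pro-B cells, or 7 and 1 with the block, and 5 and 1 with dividing pro-B cells left out. Igkc, the kappa constant region on chromosome 6, was at 4604 and 5763 CPM in members and at 118 and 172 CPM in Dntt pro-B cells (log2 fold change 5.21, SE 0.55, edgeR adjusted p = 0.0033). Ighm, the mu heavy chain, was at 4904 and 4529.7 CPM against 1189 and 1276 CPM (2.00, SE 0.30, edgeR adjusted p = 0.0066). In both genes the lower member sum was above the higher pro-B sum. The lambda constant genes Iglc1, Iglc2, and Iglc3 are near copies of one another, so how the reads split among them is uncertain. Iglc1 was at 365 and 753 CPM in members, from 4 UMIs in pro-B cells of library 1 and 0 in library 2, and was at least 671-fold higher in library 2. Vpreb2, a surrogate light chain gene, moved the other way, at 5.41 and 9.33 CPM in members against 192 and 354 CPM (-5.20, SE 0.79, edgeR adjusted p = 0.0068). The pro-B gate required UMIs of the surrogate light chain genes Vpreb1 and Igll1, so the choice of comparator bears on Vpreb2. Vpreb3, whose product binds immunoglobulin chains, was at 3095 and 3042 CPM against 2418 and 3580 CPM (0.10, SE 0.32, edgeR adjusted p = 0.87).

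The V(D)J genes split against pro-B cells, with 4 of 12 higher and 3 lower. Polm, a polymerase that fills light chain joins, was at 166 and 112 CPM in members and at 3.76 and 2.99 CPM in pro-B cells (log2 fold change 5.41, SE 0.47, edgeR adjusted p = 0.0022). It was the V(D)J gene still called with dividing pro-B cells left out (adjusted p = 0.0039). Its relative Poll, a polymerase of the same family, had 0 UMIs in library 1 and 1.87 CPM in library 2 against 10.8 and 9.73 CPM in pro-B cells (edgeR adjusted p = 0.037), at least 8.64-fold lower in library 1. Rag2 was at 36.9 and 50.9 CPM in pro-B cells, and its difference of 0.61 (SE 0.40) did not pass (edgeR adjusted p = 0.34). Lower members of the list were Hmgb1 and Hmgb2, chromatin proteins that assist RAG cutting and are abundant in dividing cells, and the log2 fold change of Hmgb1 was 0.00 once dividing pro-B cells were left out (-1.51 with them).

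Of 25 transcription factors, 11 rose and 2 fell, or 19 and 3 with the block, and 2 rose and 2 fell with dividing pro-B cells left out. Ikzf3, which encodes Aiolos, was at 146 and 167 CPM in members and at 3.51 and 4.86 CPM in pro-B cells (5.28, SE 0.52, edgeR adjusted p = 0.0033). Spib, an ETS factor, was at 541 and 232 CPM against 52.9 and 48.6 CPM (3.02, SE 0.48, edgeR adjusted p = 0.0079). Irf4, which promotes light chain rearrangement, was at 291 and 217 CPM against 70.2 and 67.7 CPM (1.95, SE 0.33, edgeR adjusted p = 0.01). Ikzf3 kept its call without dividing pro-B cells (0.0044), and Spib and Irf4 did not (0.062 and 0.068). The 2 that fell were early factors: Erg was at 7.08 and 10.3 CPM in members against 69.5 and 111 CPM (-3.35, SE 0.38, edgeR adjusted p = 0.0033), and Lef1, a factor of the Wnt pathway, was at 107 and 111 CPM against 519 and 557 CPM (-2.25, SE 0.35, edgeR adjusted p = 0.0076). Both stayed called without dividing pro-B cells (0.0026 and 0.0041).

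Among receptor signaling genes, 4 of 16 rose and 1 fell, or 7 and 1 with the block. Lyn, a Src family kinase, was at 382 and 318 CPM in members and 58.4 and 70.3 CPM in pro-B cells (2.51, SE 0.28, edgeR adjusted p = 0.0033), and Blk, Syk, and Pik3ap1 rose with it, whereas the kinase gene Fyn fell (-1.71, SE 0.36, edgeR adjusted p = 0.02). Of 29 immature and mature B cell genes, 11 rose and 1 fell, or 15 and 1 with the block, and H2-Ab1, H2-DMa, H2-Oa, and H2-Ob were called in neither fit. H2-Oa, a class II chaperone gene, pointed the other way from Cd74, at 5.41 and 9.33 CPM in members and 11.04 and 17.96 CPM in pro-B cells. Ly6d, a surface protein of committed B precursors, was at 1446 and 2012 CPM against 95.8 and 70.3 CPM (4.41, SE 0.56, edgeR adjusted p = 0.0038). Cd74 stood at 34.1 and 5.24 CPM in pro-B cells (4.88, SE 0.95, edgeR adjusted p = 0.017). Thus Cd74 in members lay between the pro-B and the Ms4a1 B cells in each library. Its UMIs were in 41.2% and 41.8% of members, 88.6% and 96.2% of Ms4a1 B cells, and 5.74% and 3.33% of pro-B cells, next to 7.71% and 6.22% of cells without Cd79a. Cxcr5 was the one that fell. Of the sort markers, Ptprc, at 231 and 128 CPM in members, and Pecam1 were higher than in pro-B cells (1.72 and 1.49 on the log2 scale, edgeR adjusted p = 0.023 and 0.045), and neither was called without dividing pro-B cells (0.14 and 0.59).

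The 18 genes of IL-7 reception and stromal contact gave no call against pro-B cells (edgeR, unblocked), with 3 higher and 5 lower under the block, which called 1608 and 1716 of all 10436 genes. Il7r was at 134 and 172 CPM in pro-B cells (log2 fold change 1.58, SE 0.47, edgeR adjusted p = 0.063, 0.022 with the block). Il2ra was at 2.26 and 1.12 CPM in pro-B cells (5.05, SE 0.54, edgeR adjusted p = 0.0033). A UMI of Il2ra was found in 17.1% and 14.7% of members and in 1.21% and 0.909% of pro-B cells, against 0.16% and 0.338% of cells without Cd79a. Of 7 listed genes known to be induced by RAG breaks, 5 were tested. Spic and Cd80 had too few counts for a test in any comparison, and Cd80 had 2 and 0 UMIs in members. Among the 5 tested, 2 rose (3 with the block). Pim2, a survival kinase, was at 72.8 and 37.3 CPM against 5.52 and 2.99 CPM (3.74, SE 0.51, edgeR adjusted p = 0.0051). Swap70, a migration adaptor, was at 306 and 211 CPM against 31.9 and 22.4 CPM (3.31, SE 0.42, edgeR adjusted p = 0.0038).

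**Figure D2:**
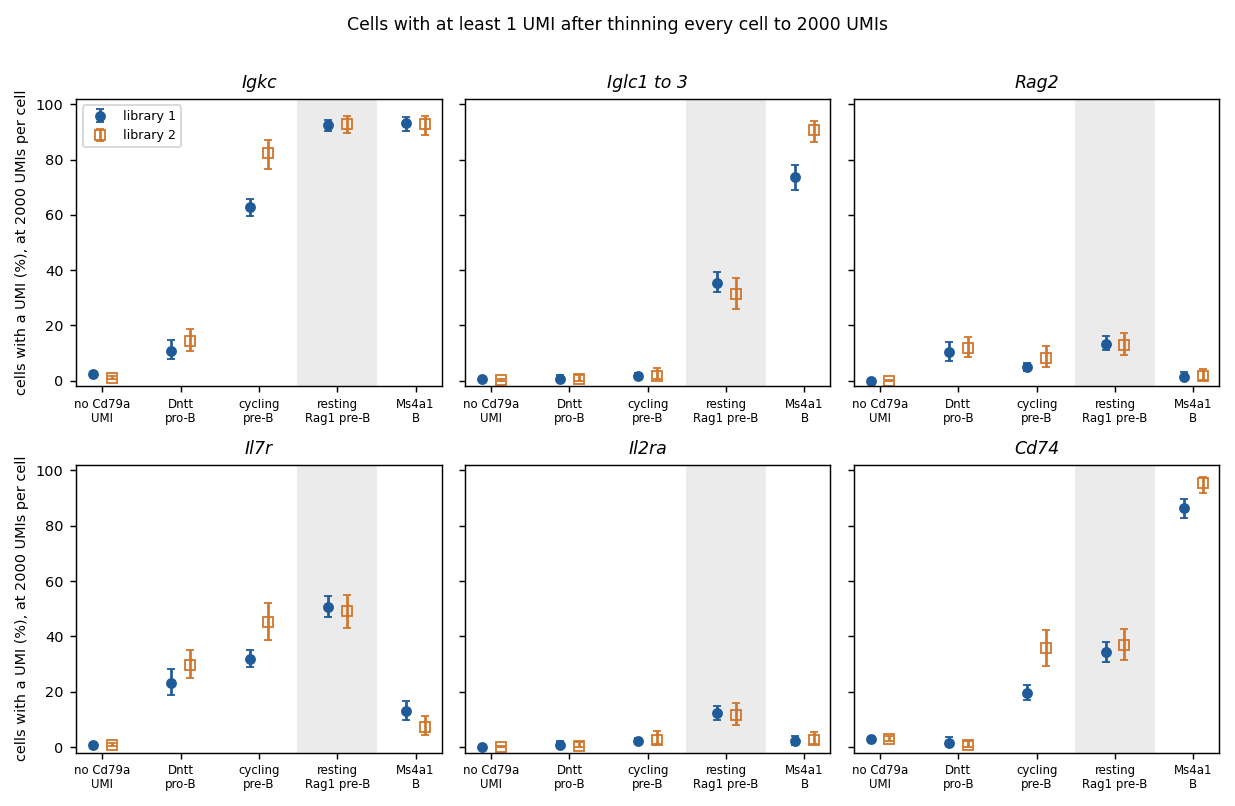
Percent of cells with at least 1 UMI after each cell was thinned to 2000 UMIs, by gene, library, and group, with cells without a Cd79a UMI as background; bars are exact binomial 95% intervals and cover counting error only. Igkc is in 92.4% and 93.0% of members, and Iglc1 to Iglc3 together are in 35.5% and 31.4%.

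Cell cycle genes were lower in members than in pro-B cells, 22 of 24 S phase and 20 of 22 G2/M genes (24 and 21 with the block), a difference that the choice of members helps to set. Without dividing pro-B cells 1 S phase gene and no G2/M gene were lower. Among the G1 cyclins and brakes, 2 of 16 rose and 4 fell, or 4 and 6 with the block. Btg1, an antiproliferative gene, was at 2665 and 3178 CPM in members against 291 and 503 CPM (2.94, SE 0.42, edgeR adjusted p = 0.0059, and 0.014 without dividing pro-B cells), and Btg2 was at 1246 and 809 CPM against 316 and 458 CPM (1.49, SE 0.33, edgeR adjusted p = 0.025, and 0.27). Cdk6, a G1 kinase, was at 21.2 and 14.9 CPM against 152 and 90.5 CPM (-2.67, SE 0.49, edgeR adjusted p = 0.014). Of 16 glycolytic enzymes 7 fell, and of 17 ribosome biogenesis genes 3. These were 9 and 7 with the block, and 2 and 0 without dividing pro-B cells. Among 12 survival genes 1 rose and 1 fell, which is near the shares of all genes called (5.6% and 8.11%). Bcl2l1, which encodes Bcl-xL, rose from 16.8 and 7.11 CPM in pro-B cells to 66.6 and 63.4 CPM in members (2.47, SE 0.49, edgeR adjusted p = 0.017). Bid, a proapoptotic gene, fell, and with the block Bcl2 fell as well.

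By the rule of largest change the higher genes beside the lambda genes were led by Cd2, an adhesion molecule used to stage B precursors, at 226 and 366 CPM in members and at 3.01 and 0.748 CPM in pro-B cells (7.22, SE 0.89, edgeR adjusted p = 0.0037). Dtx1, a Notch pathway gene, was at 80.7 and 40.1 CPM with 0 UMIs in pro-B cells of library 2, at least 35.7-fold higher there. Rgs16, a regulator of G protein signaling, the collagen gene Col5a3, and Gm30211 completed the 8. Gm30211 spans 70719074 to 70740554 of chromosome 6 on the plus strand (GRCm38) and contains Igkc (70726435 to 70726966, same strand), so the reads of the 2 may not be told apart. The largest decrease was of Myl10, a myosin light chain, at 0.416 and 0 CPM in members and 80.8 and 231 CPM in pro-B cells, at least 82.6-fold lower in library 2. Pbk, Esco2, Cdk1, Hist1h3c, Pclaf, and Kif11, also lower by this rule, are cell cycle genes, and none of these 6 was called without dividing pro-B cells.

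The third comparison set members against pre-B cells caught dividing, which differ from them by the rule itself in Mki67 and Top2a and in Rag1, of which cycling cells needed no UMI (24.7 and 45.2 CPM). Of 10436 genes, 1054 (10.1%) were higher in members and 1240 (11.9%) lower, and the library block gave 2285 and 2227. With a limit of 5% mitochondrial UMIs 670 and 896 were called, of which 666 and 881 were among those reported. In cells of 2000 to 8000 UMIs, a range with 212 and 61 cycling cells, 177 and 568 were called, of which 150 and 506 were among those reported. All 24 S phase genes and all 22 G2/M genes were lower, with list medians of -3.33 and -4.75 on the log2 scale against 0.063 for all genes. The gates on Mki67 and Top2a, which split dividing from other cells, help to set this difference, so it is description only.

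Members had more light chain and lineage factor RNA than dividing pre-B cells. Of 9 immunoglobulin and pre-B receptor genes 7 were higher, of 16 receptor signaling genes 9, of 25 transcription factors 15, and of 29 immature and mature genes 11, and none in these 4 lists was lower. With the block they were 8, 11, 22, and 15, again with none lower. The list medians on the log2 scale were larger in library 1 than in library 2: 1.81 and 0.85 for the transcription factors, 1.61 and 0.779 for receptor signaling, and 1.85 and 0.667 for the immature and mature genes. The cycling pre-B cells of library 1 also held more RNA of other lineages: Car2, an erythroid carbonic anhydrase gene, was at 1651 CPM there and at 1327 CPM without mixed barcodes, against 92.4 and 47.4 CPM in members. In library 2 Car2 was at 363 CPM in cycling cells, 205 CPM without mixed barcodes, and 13.1 CPM in members. The neutrophil granule genes Elane and Mpo were at 813 and 510 CPM in the cycling cells of library 1, and at 44.4 and 85.7 CPM without mixed barcodes, against 5.41 and 8.32 CPM in members. An Ighm UMI was found in 85.5% and 96.02% of cycling cells and in 100% and 99.7% of members. Without mixed barcodes 1021 genes were higher and 1496 lower, of which 924 and 1202 were among those reported. The part in the differences of the other-lineage RNA left after that step, and of cells without an Ighm UMI, was not tested. Igkc was at 707 and 1702 CPM in cycling pre-B cells (log2 fold change 2.01, SE 0.47, edgeR adjusted p = 0.024). Foxo1, a factor that drives Rag transcription, was at 264 and 199 CPM in members against 44.1 and 57.7 CPM (2.11, SE 0.32, edgeR adjusted p = 0.005). Rag2, which rose with Rag1 UMIs among the cells described above and so is tied to the choice of members, was at 11.6 and 26.3 CPM in cycling cells (1.69, SE 0.41, edgeR adjusted p = 0.025), and with it Polm, Xrcc6, Dclre1c, which encodes Artemis, and Lig4 were higher, 5 of 12 V(D)J genes, while Hmgb1, Hmgb2, and Xrcc5 were lower, and Poll too with the block.

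Myc, a driver of growth, was at 0.832 and 2.80 CPM against 11.7 and 22.0 CPM in cycling cells (-3.49, SE 0.86, edgeR adjusted p = 0.026), and the kinase and cyclin genes Cdk4, Cdk6, and Ccnd3 and the inhibitor gene Cdkn2c fell too. Of the 16 G1 genes 5 fell and 3 rose (6 and 5 with the block), among the latter Cdkn1b, which encodes the inhibitor p27, at 318 and 276 CPM against 78.9 and 113 CPM (1.55, SE 0.30, edgeR adjusted p = 0.011). Ldha, lactate dehydrogenase, was at 82.8 and 133 CPM against 405 and 515 CPM (-2.20, SE 0.27, edgeR adjusted p = 0.0025), and 7 of 16 glycolytic genes and 8 of 17 ribosome biogenesis genes fell, or 10 and 13 with the block. Of the 18 IL-7 and stromal genes Il2rg, Bst1, and Cd93 rose and Spn fell, next to 10.1% and 11.9% of all genes called. With the block Jak1 and Cxcr4 rose and Itgb1 fell as well, next to 2285 and 2227 of all 10436 genes. The counts of this list thus do not set it apart from the other genes. Il2ra was at 5.12 and 10.1 CPM in cycling cells (2.85, SE 0.46, edgeR adjusted p = 0.0066). Of the RAG break genes 3 of 5 tested rose (Pim2, Swap70, and Cd69, with Cd40 under the block). Of the 12 survival genes 2 rose, Bcl2l1 and Mcl1, and none fell. By the rule of largest change, BE692007, Gm8369, Tmem163, Snx29, and Col5a3 followed the lambda genes among those higher, and BE692007 was at 578 and 269 CPM against 13.2 and 12.8 CPM. Those lower were cell cycle genes: Hist1h3b and Lrr1 had 0 UMIs in members, at least 23.1-fold and 26.1-fold lower in library 1 and at least 32.2-fold and 26.2-fold lower in library 2, followed by Pbk, Shcbp1, Hist1h3c, Esco2, and Cdk1.

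**Figure D3:**
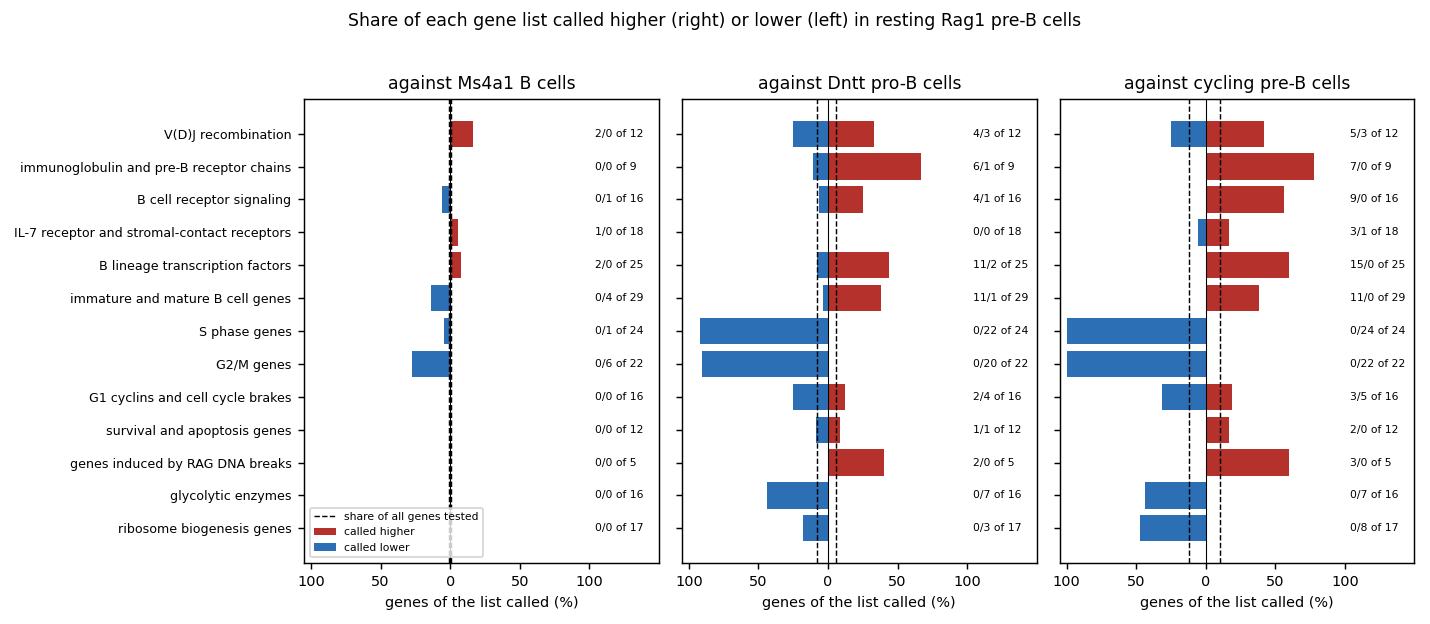
Percent of each gene list called higher or lower in members than in Ms4a1 B, Dntt pro-B, and cycling pre-B cells (edgeR, adjusted p under 0.05); dashed lines mark the percent of all 10436 genes called. The cell cycle lists are the ones called lower in nearly every gene against pro-B and cycling cells. The choice of cells by Mki67 and Top2a helps to set this.

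Light chain RNA was then followed cell by cell. At least 1 Igkc UMI was counted in 92.5% (95% interval 90.3 to 94.4) and 92.8% (89.2 to 95.5) of members, in 93.1% and 94.1% of Ms4a1 B cells, in 81.2% and 92.5% of cycling pre-B cells, in 20.5% and 19.7% of pro-B cells, and in 14.2% and 3.99% of cells without Cd79a. After thinning to 2000 UMIs the shares were 92.4% and 93.0% of members, 62.8% and 82.4% of cycling pre-B cells, 10.9% and 14.3% of pro-B cells, and 2.32% and 1.05% of cells without Cd79a. Igkc in members was thus well above the background. The median member had 13 and 19 Igkc UMIs and the median cycling pre-B cell, which is deeper, 13 and 22.5, 467 and 210 members had at least 10, and 53 and 21 had none.

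Lambda RNA was present in fewer members. An Iglc1, Iglc2, or Iglc3 UMI was found in 42.0% and 38.4% of members against 81.2% and 93.7% of Ms4a1 B cells, 6.28% and 10.2% of cycling pre-B cells, 3.02% and 0.909% of pro-B cells, and 2.82% and 1.15% of cells without Cd79a. The thinned shares were 35.5% and 31.4% of members and 0.772% and 0.225% of cells without Cd79a. These genes made up 17.5% and 24.0% of light chain constant region UMIs in members. At least 20 lambda UMIs were counted in 31 and 23 members, and 25 and 16 of these had fewer than 10 Igkc UMIs. Only 2 and 3 members had at least 20 of both.

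Members with little kappa RNA had more lambda RNA. Of members with no Igkc UMI, 79.2% and 76.2% had a lambda UMI, with medians of 4 and 9 lambda UMIs, whereas of members with 10 to 19 Igkc UMIs 36.3% and 43.5% did, with medians of 0. From the other side, the median Igkc count was 15 and 21 in members with no lambda UMI and 1.5 and 2 in the 10 and 17 members with at least 40. Igkc and Iglc counts come from the same cell and share its depth, and members with no Igkc were shallower (median 2357 and 2376 UMIs). No test was made over cells. RNA of V kappa segments, read from the 3′ end, was seen in 25.7% and 45.2% of members. Counts of the constant genes Igkc and Iglc1 to Iglc3 alone do not show whether the light chain gene of a cell was rearranged. The segment used is also mostly unknown here.

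**Figure D4:**
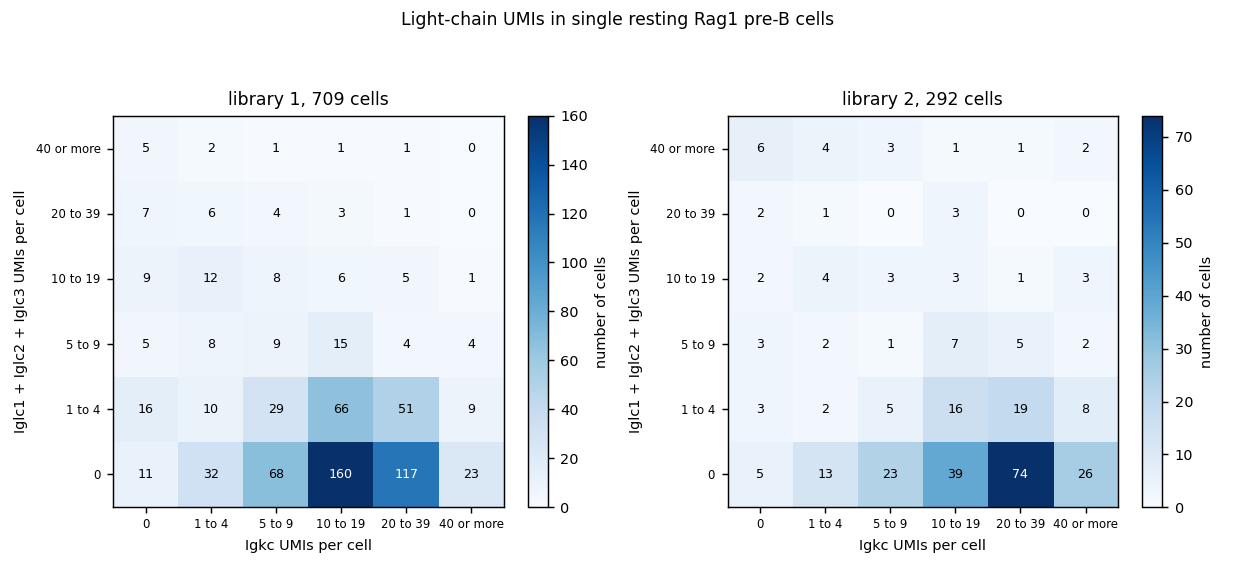
Number of members by Igkc UMIs (bins of 0, 1 to 4, 5 to 9, 10 to 19, 20 to 39, and 40 or more) and by summed Iglc1 to Iglc3 UMIs in the same bins, 1 panel per library, with a separate color scale per panel. Most members have Igkc and no lambda UMI, and the corner with at least 20 UMIs of both holds 2 members in library 1 and 3 in library 2.

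Surrogate light chain RNA was counted in a minority of members. At least 1 UMI of Vpreb1 or Igll1 was found in 53 and 42 of them. For Vpreb1 the share was 6.63% and 13.4% of members, against 3.10% and 3.18% of cells without Cd79a at about 3 times the depth, and after thinning to 2000 UMIs it was 5.70% and 10.1% against 0.537% and 0.600%. In the members with a Vpreb1 or Igll1 UMI, Lef1 was at 415 and 363 CPM, against 80.9 and 63.2 CPM in the other members, and Erg was at 47.3 and 64.4 CPM, against 3.62 and 0 CPM. Rag2 differed less between the 2 kinds, at 68.3 and 70.3 CPM against 63.7 and 63.2 CPM. Lef1 was also higher in members with no Igkc UMI, at 306 and 139 CPM, than in those with at least 10, at 73.2 and 76.1 CPM. These subsets were formed after the values were known and are described without a test.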

How the data were processed

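Raw UMI counts from Cell Ranger, not normalized and not pooled, are what the authors deposited for each gene and barcode. The submitters' processing notes name mm10 and Cell Ranger 6.1.2. Coordinates are those of GENCODE M21 on GRCm38, in which 32158 of 32285 identifiers were found, and start windows are RefSeq GRCm38.p6. Both mouse libraries were used. Barcodes with under 500 genes, under 500 UMIs, or over 10% mitochondrial UMIs were removed (6276 and 2893 cells kept). Cells were gated by counts as described, and 2 and 3 barcodes that met both the Dntt pro-B and the Ms4a1 gate were left out of the comparators. The members, gene lists, gates, and rules were chosen with earlier results of these data known.

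UMIs were summed per group and library (1072035 to 21659898 UMIs per sum). All 8 sums entered 1 model, with genes filtered by filterByExpr and TMM factors, and were tested by the two-sided quasi-likelihood test of edgeR 4.0.16 (R 4.3.3) with Benjamini-Hochberg adjustment over 10436 genes. DESeq2 1.42.0 and the other settings are in the closing section. Doublets were called with Scrublet in scanpy 1.11.5, which marked 2.66% of cells in library 1 and 0.0691% in library 2, so leaving out its calls could change little in library 2, and 9 and 0 members were called. They were kept. Sums with the same number come from the same library: their deviations from the group means correlated (r 0.411 to 0.600 over genes, equal in both libraries because each group has 2 sums), so a fit with the library as a block is given beside the list counts and named genes that it changes.

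The named genes were the 8 with the largest and the 8 with the smallest log2 fold change per comparison among those past the threshold, with the same direction in both libraries and at least 50 CPM in the higher group. Gating, mitochondrial, ribosomal protein, and immunoglobulin V genes were left out. Not every gene the rule chose is reported here. Members of the gene lists were added, and the start windows and the genes described only by rank were chosen after their values were seen. Shares with a UMI have exact (Clopper-Pearson) 95% intervals, and a count of 0 was given the floor of 3 counts. Both cover counting error only. The script was tested on simulated data.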

Additional observations from a re-analysis of the deposited data

How the results depend on the processing

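Leaving out a library leaves 1 sum per group, so those fits give values with no test. The gene results that were called kept their direction without replicate 1 and without replicate 2, whereas some that were not called changed sign, such as Igkc against Ms4a1 B cells and Vpreb3 against pro-B cells, and counts of calls could not be recomputed. Counts of genes called higher and lower are given in that order. Against Ms4a1 B cells (37 and 73 as reported) they were 359 and 550 with the library as replicate block, 143 and 304 with DESeq2, 95 and 131 in cells of 2000 to 8000 UMIs, 24 and 45 with the legacy edgeR fit, 1 and 3 with at most 5% mitochondrial UMIs, 74 and 151 without mixed barcodes, and 59 higher with cells thinned to 2000 UMIs. Against Dntt pro-B cells (584 and 846) they were 1608 and 1716 with the block, 284 and 430 in the depth window, 281 higher when thinned, 342 higher with at most 5% mitochondrial UMIs, and 207 and 225 without dividing comparators. Against cycling pre-B cells (1054 and 1240) they were 2285 and 2227 with the block, 177 and 568 in the depth window, 362 and 758 when thinned, and 670 higher with at most 5% mitochondrial UMIs. Library totals, upper-quartile factors, no low-count filter, gating genes left out, Scrublet doublets left out, and Rag1 of at least 2 UMIs kept every count within 1.5 times, as did DESeq2 and the legacy fit against pro-B and cycling cells. The mixed-barcode, thinning, and dividing-comparator settings were chosen after seeing the data.

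Over the settings that give a test, gene results lost the call 246 times, gained it 167 times, and reversed 6 times, and otherwise stayed on the same side of the threshold. Without dividing comparators, Pclaf was 0.85 (as reported -4.05) and Rrm2 0.48 (-3.33) against Ms4a1 B cells, and Esco2 was 0.34 (-6.54), Ccnb1 0.83 (-3.48), and Hmgb1 0.00 (-1.51) against pro-B cells. Vpreb2 against cycling cells was 5.70 in the depth window, where it was called higher (edgeR adjusted p = 0.015; as reported -1.36, not called). The causes were not tested. The share of members with Igkc in library 1 was 89.8% at 2 or more UMIs. With lambda UMIs it was 30.2% and 28.4% at that minimum, 35.5% and 31.4% when thinned, and 47.3% in library 1 among members with at least 2 Rag1 UMIs. With 2 libraries and medians of 3181 and 3352 UMIs per member, low genes such as Rag2 had no UMI in most members. The cell counts behind the sums differ between libraries, and library 1 carries the higher mitochondrial share.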
